A study of Mus musculus with 16 samples.

Results

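BMP and TGF-beta are secreted factors of one signalling family. The 8 genes described here are known to respond to either or both. They are the 4 Id genes (Id1, Id2, Id3, Id4), the inhibitory Smad genes Smad6 and Smad7, and Smad9 and Bambi. They were chosen by symbol, and all 8 are among the 27179 rows of the deposited table of normalized counts and among the 15024 genes tested. The libraries came from Pdgfrb+ cells of the epididymal fat depot, sorted from C57BL/6 mice on postnatal day 7, when this depot is still forming. Pdgfrb encodes a platelet-derived growth factor receptor carried by mural cells and adipose progenitors. The 4 sub-populations were mesothelial-like cells (MLCs), smooth muscle cells (SMCs), adipocyte precursor cells (APCs) and fibro-inflammatory progenitors (FIPs), with 4 libraries each, 16 in all. All groups shared strain, age, depot and the Pdgfrb+ sort, and none carried a labelled treatment or allele. The labels do not say whether libraries of one population came from separate animals, or whether animals were pooled, so p-values reflect no more than the spread among libraries, possibly technical.

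BMP and TGF-beta ligands act through paired serine/threonine kinase receptors that phosphorylate Smad proteins, which then enter the nucleus with Smad4 and control target genes. The Id genes are classic targets of the BMP branch, and their proteins bind E proteins, a class of helix-loop-helix transcription factors, and keep them from DNA. Smad6 and Smad7 are induced by the pathway and act back on it, Smad6 mainly on BMP receptors and Smad7 on both branches. Smad9, also called Smad8, is a receptor-regulated Smad of the BMP branch with weak activity of its own and not an inhibitory Smad by structure. Bambi encodes a membrane protein that resembles a type I receptor without a kinase and dampens signalling. BMP signalling is known to promote commitment of progenitors to the fat lineage, and TGF-beta to restrain it.

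The promoters of 5 of the 8 genes were matched by gene ID in a RefSeq table of GRCm38.p6, as windows of 275 bases, 250 before the transcript start that the table uses and 25 from that start on, on the gene's own strand. On this build Id1 lies on chromosome 2 (152736251 to 152737410), Id2 on 12 (25093799 to 25096092), Id3 on 4 (136143822 to 136145392), Id4 on 13 (48261116 to 48266028), Smad6 on 9 (63953076 to 64022085) and Smad9 on 3 (54755455 to 54801662). The transcript start is the gene's outer end for Id2, Id3 and Id4, but lies 127 bases inside the gene for Smad9 and 26 inside for Smad6. All 8 genes are annotated as protein coding. The windows of Smad6, Smad9, Id4 and Id3 are printed because these genes differed between populations in the results that follow, and because their windows hold different Smad motifs. Capitals mark GTCTAGAC, a palindrome that Smad3 and Smad4 bind in vitro, or GGCGCC, the GC-rich palindrome known from BMP-responsive promoters. Positions count from the transcript start of the window, with negative numbers before it.
Smad6, chr9:64022035-64022309, minus strand: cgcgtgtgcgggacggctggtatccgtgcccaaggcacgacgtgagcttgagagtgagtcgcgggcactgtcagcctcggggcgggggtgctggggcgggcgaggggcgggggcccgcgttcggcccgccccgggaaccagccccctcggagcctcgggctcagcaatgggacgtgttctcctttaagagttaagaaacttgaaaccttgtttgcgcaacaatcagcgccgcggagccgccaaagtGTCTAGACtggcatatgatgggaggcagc
Smad9, chr3:54755332-54755606, plus strand: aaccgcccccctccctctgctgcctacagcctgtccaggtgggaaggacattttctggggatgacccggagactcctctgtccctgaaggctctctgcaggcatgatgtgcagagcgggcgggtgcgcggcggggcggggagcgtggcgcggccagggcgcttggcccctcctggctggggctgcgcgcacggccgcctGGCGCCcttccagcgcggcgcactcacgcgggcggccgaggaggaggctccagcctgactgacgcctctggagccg
Id4, chr13:48260866-48261140, plus strand: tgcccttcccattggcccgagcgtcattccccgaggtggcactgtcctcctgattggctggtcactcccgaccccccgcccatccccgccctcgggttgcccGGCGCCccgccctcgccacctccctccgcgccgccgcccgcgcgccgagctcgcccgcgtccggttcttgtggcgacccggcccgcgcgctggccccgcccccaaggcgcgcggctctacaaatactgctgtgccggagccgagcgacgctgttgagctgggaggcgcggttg
Id3, chr4:136143572-136143846, plus strand: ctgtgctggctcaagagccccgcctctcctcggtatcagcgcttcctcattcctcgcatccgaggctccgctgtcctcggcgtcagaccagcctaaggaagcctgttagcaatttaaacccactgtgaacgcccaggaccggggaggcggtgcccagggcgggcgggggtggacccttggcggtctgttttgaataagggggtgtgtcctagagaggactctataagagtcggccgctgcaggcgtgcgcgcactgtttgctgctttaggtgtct
Smad6 had GTCTAGAC across that transcript start, from position -4 to 4, and 0.192% of 32851 promoter windows of this length held that motif. Smad9 had GGCGCC from -51 to -46 and Id4 from -148 to -143, and Id2 held it too, from -231 to -226. The Smad9 match thus lies inside the annotated gene, as does that of Smad6. In all, 10.7% of windows held GGCGCC. The Id3 window held neither, but had the shorter CAGAC at -167 and, on the other strand, at -68. That motif was in 46.1% of windows when both strands were searched. A match is a description of these letters and no evidence of binding.

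The libraries held between 9.20 and 27.5 M reads, with a median of 21.6 M. The shallowest were SMCs replicate 3 at 9.20 M and APCs replicate 4 at 11.2 M. The labels were checked against marker lists. The sum of 6 mesothelial markers averaged 118128 ± 1145 normalized counts in MLCs and 11451 ± 2174 in SMCs, with 4085 ± 203 in APCs and 3111 ± 239 in FIPs (SD, n = 4 per population). The sum of 6 smooth muscle markers averaged 9594 ± 2243 in SMCs, above the 4167 ± 311 of MLCs, yet Myh11, smooth muscle myosin, overlapped between them, at 1288 ± 79.9 in MLCs and 1262 ± 412 in SMCs (SD, n = 4 per population). SMCs also carried the progenitor marker Pdgfra at 23838 ± 1968, against 20555 ± 248 in APCs and 22966 ± 975 in FIPs, so the label SMCs is kept here as the name of a sort. Myocd, a defining smooth muscle regulator, averaged under 100 in all 4 populations. The sum of 5 adipocyte precursor markers averaged 80745 in APCs and 53078 in FIPs, with 38735 in SMCs and 1866 in MLCs. The sum of 5 fibro-inflammatory progenitor markers averaged 47889 in FIPs, 18794 in MLCs, 14405 in SMCs and 8894 in APCs. Of these 5, Dpp4 averaged more in MLCs (8805) than in FIPs (2053), and the others were highest in FIPs. Of 10 endothelial markers, 6 averaged under 100 in MLCs and 6 in SMCs, with 6 in APCs and 9 in FIPs. Tie1, Emcn, Egfl7, Cldn5 and Vwf were under 100 in all 4 populations, and Pecam1 averaged 102 in MLCs and 30.6 in SMCs, with 102 in APCs and 87.8 in FIPs. Kdr, a VEGF receptor, averaged 2485 ± 281 in MLCs and 826 ± 48.4 in SMCs, with 207 ± 45.3 in APCs and 85.7 ± 28.8 in FIPs (SD, n = 4 per population). Esam, an adhesion molecule, averaged 2444 ± 92.9 in MLCs and 169 ± 27.2 in SMCs, with 41.2 ± 16.5 in APCs and 34.4 ± 7.71 in FIPs. The means of Kdr and Esam had the order of those of Id1 and Smad6 given further on. Cdh5 was highest in SMCs, at 1698 ± 404, and Tek in FIPs, at 7827 ± 401. Endothelial cells are known for high Id1, Smad6 and Smad7, and their part in the values of these genes was not tested. The summed level of the 10 markers was 4852 to 5849 in MLCs, 3719 to 4510 in SMCs, 1164 to 1725 in APCs and 7918 to 8817 in FIPs. In bulk libraries, fewer cells of a type and less RNA per cell cannot be told apart.

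**Figure D1:**
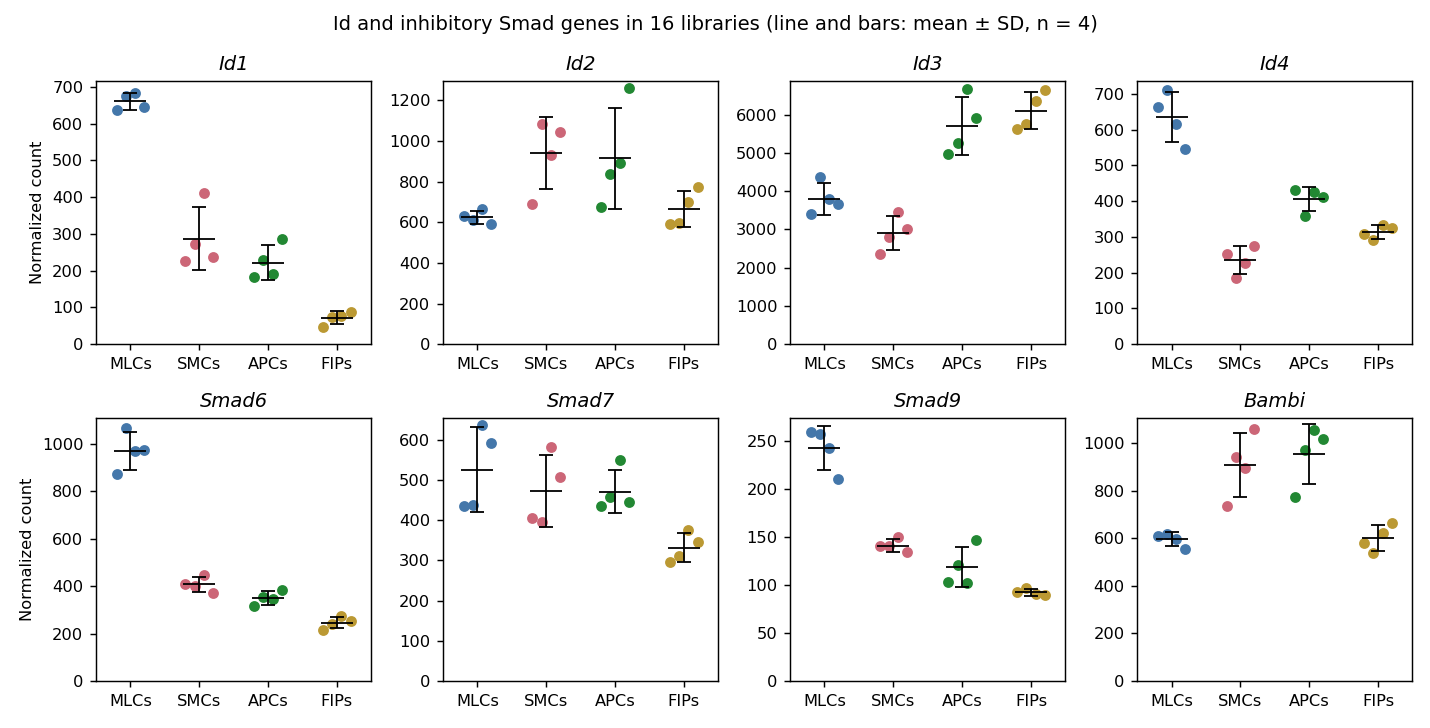
Normalized counts of the 8 genes on linear axes from 0, 1 panel per gene, for MLCs, SMCs, APCs and FIPs from left to right. Points are the 4 libraries of a population the line is their mean and the bars are the SD. Id1 and Smad6 are highest in all 4 MLC libraries and lowest in all 4 FIP libraries, while Id2, Smad7 and Bambi span a narrower range.

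Id1, a direct BMP target, varied most. It stood at 637, 676, 684 and 644 normalized counts in the 4 MLC libraries, at 227, 272, 412 and 236 in SMCs, at 183, 229, 192 and 285 in APCs, and at 46.5, 74.9, 76.4 and 88 in FIPs, each in the order of replicates 1 to 4. All MLC libraries lay above all others and all FIP libraries below all others, whereas SMCs and APCs overlapped. The means were 660 ± 23.0 in MLCs and 287 ± 85.6 in SMCs, with 222 ± 46.7 in APCs and 71.4 ± 17.6 in FIPs (SD, n = 4 per population), so the highest was 9.24 times the lowest. Calls rest on limma, fitted to log2(value + 1) over all tested genes, and need both a change of 1 log2 unit or more in size and an adjusted p under 0.05. Id1 rose in MLCs over FIPs by 3.23 on the log2 scale (SE 0.19, adjusted p = 1.15e-11), in MLCs over APCs by 1.59 (adjusted p = 4.90e-07) and in MLCs over SMCs by 1.24 (adjusted p = 1.31e-05). It also rose in SMCs over FIPs by 1.99 (adjusted p = 5.07e-08) and in APCs over FIPs by 1.64 (adjusted p = 1.05e-06). SMCs over APCs gave 0.35, with a 95% interval from -0.05 to 0.75 and an adjusted p of 0.131.

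The high SMC value of Id1, 412, came from replicate 3, the shallowest library, which also had the highest mesothelial marker sum of the SMCs, 14029 against 8908 to 12164 in the others. Without that library, Id1 in MLCs over SMCs came to 1.43 on the log2 scale. The high APC value, 285, came from replicate 4, the second shallowest, whose smooth muscle marker sum was 5067 against 1606 to 1846 in the other APCs. Without it, Id1 in APCs over FIPs came to 1.51 on the log2 scale. The part of either cell type in these values was not tested.

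Id2 and Id3, relatives of Id1 with the same E-protein partners, had another order. Id3 stood at 3390, 4367, 3795 and 3653 normalized counts in MLCs, at 2353, 2805, 3444 and 3018 in SMCs, at 4960, 5260, 6660 and 5919 in APCs, and at 5621, 5760, 6350 and 6644 in FIPs. Every progenitor library lay above every MLC and SMC library, and APCs and FIPs overlapped. Id3 averaged 2905 ± 454 in SMCs and 6094 ± 484 in FIPs (SD, n = 4 per population) and fell by 1.08 on the log2 scale in SMCs over FIPs (SE 0.11, adjusted p = 7.27e-08). SMCs over APCs was just under the threshold of size, with -0.98 on the log2 scale (adjusted p = 3.30e-07). MLCs over APCs gave -0.58 and MLCs over FIPs -0.68, both with an adjusted p under 0.05 but short of that size. The difference between APCs and FIPs was -0.10, with a 95% interval from -0.33 to 0.12.

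The Id3 result sits close to the threshold of size. Without SMCs replicate 1 the SMCs over FIPs value was -0.98 and was not called. SMCs over APCs was called without SMCs replicate 3, at -1.06, without APCs replicate 1, at -1.04, or without APCs replicate 2, at -1.01. The direction was the same each time. The sum of 10 immediate early and dissociation stress genes, which react to tissue handling, was also higher in the progenitors, at 583506 to 652849 in APCs and 571865 to 600563 in FIPs, against 479014 to 519717 in MLCs and 500445 to 540589 in SMCs. Not every gene of the list had that order. Hspa1a averaged 4155 in MLCs and 3150 in SMCs, against 1880 in APCs and 1845 in FIPs. Hspa1b averaged 4069 and 2684, against 1303 and 1500. Atf3 had its highest mean in MLCs, at 55412, and Fosb its lowest in FIPs, at 125305. The part of tissue handling in the Id3 values was not tested.

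Id2 stood at 632, 613, 663 and 590 normalized counts in MLCs, at 692, 1085, 933 and 1044 in SMCs, at 674, 836, 892 and 1261 in APCs, and at 592, 598, 701 and 773 in FIPs. All MLC libraries lay below all SMC and all APC libraries, and every other pair overlapped. No contrast was called. The widest was MLCs over SMCs, with -0.57 on the log2 scale (SE 0.15, adjusted p = 0.00322), and the means were 624 ± 30.9 in MLCs and 939 ± 177 in SMCs (SD, n = 4 per population). SMCs over APCs gave 0.05, with a 95% interval from -0.27 to 0.37, and MLCs over FIPs gave -0.08, with one from -0.41 to 0.24.

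Id4, the fourth Id gene and known from neural development, was highest in MLCs and lowest in SMCs. It stood at 664, 710, 615 and 547 normalized counts in MLCs, at 253, 186, 226 and 276 in SMCs, at 432, 358, 425 and 412 in APCs, and at 309, 290, 334 and 325 in FIPs. No pair of populations overlapped. Id4 rose in MLCs over SMCs by 1.44 on the log2 scale (SE 0.11, adjusted p = 8.36e-10). In MLCs over FIPs it rose by 1.005 (adjusted p = 1.17e-07), at the threshold of size, and without MLCs replicate 2 the value was 0.95, without FIPs replicate 2 0.97, without MLCs replicate 1 0.98 and without FIPs replicate 1 0.996, each not called. SMCs stood below the progenitors, with log2 fold changes of -0.80 in SMCs over APCs and -0.43 in SMCs over FIPs, neither called. An antisense gene on the opposite strand, A330033J07Rik, overlaps Id4 and averaged between 17.9 and 24.1 in the 4 populations. The strand setting of the counting is not given in the sources used here, so reads of the pair cannot be told apart.

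Smad6, the inhibitor directed mainly at BMP receptors, had the same order of means as Id1. It stood at 873, 1069, 971 and 976 normalized counts in MLCs, at 411, 402, 448 and 372 in SMCs, at 316, 355, 345 and 384 in APCs, and at 217, 242, 273 and 255 in FIPs. MLCs lay above all other libraries and FIPs below all others, while SMCs and APCs overlapped. Smad6 averaged 972 ± 80.0 in MLCs and 408 ± 31.5 in SMCs, with 350 ± 28.0 in APCs and 247 ± 23.7 in FIPs (SD, n = 4 per population). It rose in MLCs over FIPs by 1.98 on the log2 scale (SE 0.09, adjusted p = 1.19e-13), in MLCs over APCs by 1.47 (adjusted p = 1.35e-11) and in MLCs over SMCs by 1.25 (adjusted p = 2.37e-10). Contrasts among the other 3 populations were smaller and not called: 0.73 in SMCs over FIPs, 0.50 in APCs over FIPs and 0.22 in SMCs over APCs. The last of these had a 95% interval from 0.04 to 0.41 (adjusted p = 0.0391).

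Smad7, which acts on TGF-beta and BMP receptors alike, varied much less. It stood at 436, 437, 638 and 593 normalized counts in MLCs, at 405, 396, 583 and 509 in SMCs, at 435, 457, 549 and 444 in APCs, and at 295, 312, 376 and 346 in FIPs. FIPs lay below every other library and the other 3 populations overlapped one another. The FIP contrasts gave log2 fold changes of 0.65 for MLCs, 0.50 for SMCs and 0.50 for APCs (SE 0.14), none called. The difference between MLCs and SMCs was 0.15, with a 95% interval from -0.14 to 0.44, and that between SMCs and APCs -0.01, with one from -0.30 to 0.28. Within MLCs and within SMCs, replicates 3 and 4 stood above replicates 1 and 2 for Smad7. The ratio of Smad6 to Smad7 ranged from 1.52 to 2.44 in MLCs, 0.731 to 1.016 in SMCs, 0.63 to 0.86 in APCs and 0.73 to 0.78 in FIPs, and the MLC values lay above all others.

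Smad9 was the least abundant of the 8 per kilobase of exon in every population. It stood at 259, 257, 243 and 210 normalized counts in MLCs, at 140, 140, 149 and 134 in SMCs, at 103, 121, 102 and 147 in APCs, and at 92.0, 97.1, 90.7 and 88.9 in FIPs. The order was that of Smad6, with SMCs and APCs again overlapping. Smad9 rose in MLCs over FIPs by 1.38 on the log2 scale (SE 0.12, adjusted p = 4.18e-09) and in MLCs over APCs by 1.04 (adjusted p = 2.77e-07). The second value was 0.98 without APCs replicate 1 and 0.97 without APCs replicate 3, both not called. SMCs over APCs gave 0.26, with a 95% interval from 0.01 to 0.52 (adjusted p = 0.07). MLCs over SMCs, at 0.77, was not called (adjusted p = 1.39e-05). The highest APC value, 147, was that of replicate 4.

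Bambi, the decoy receptor, split the populations in another way. It stood at 612, 620, 598 and 554 normalized counts in MLCs, at 734, 940, 897 and 1060 in SMCs, at 774, 972, 1057 and 1017 in APCs, and at 581, 537, 621 and 665 in FIPs. SMCs and APCs lay above all MLC and FIP libraries, and overlapped each other, as MLCs and FIPs did. No contrast was called. MLCs over APCs gave the widest log2 fold change, -0.67 (SE 0.11, adjusted p = 1.42e-05), and APCs over FIPs gave 0.66. MLCs and FIPs differed by -0.01, with a 95% interval from -0.23 to 0.21, and SMCs and APCs by -0.08, with one from -0.30 to 0.15. The table has a row for a Bambi pseudogene, Bambi-ps1, which averaged between 4.53 and 10.2, and the treatment of reads that match both is not given in the sources used here.

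**Figure D2:**
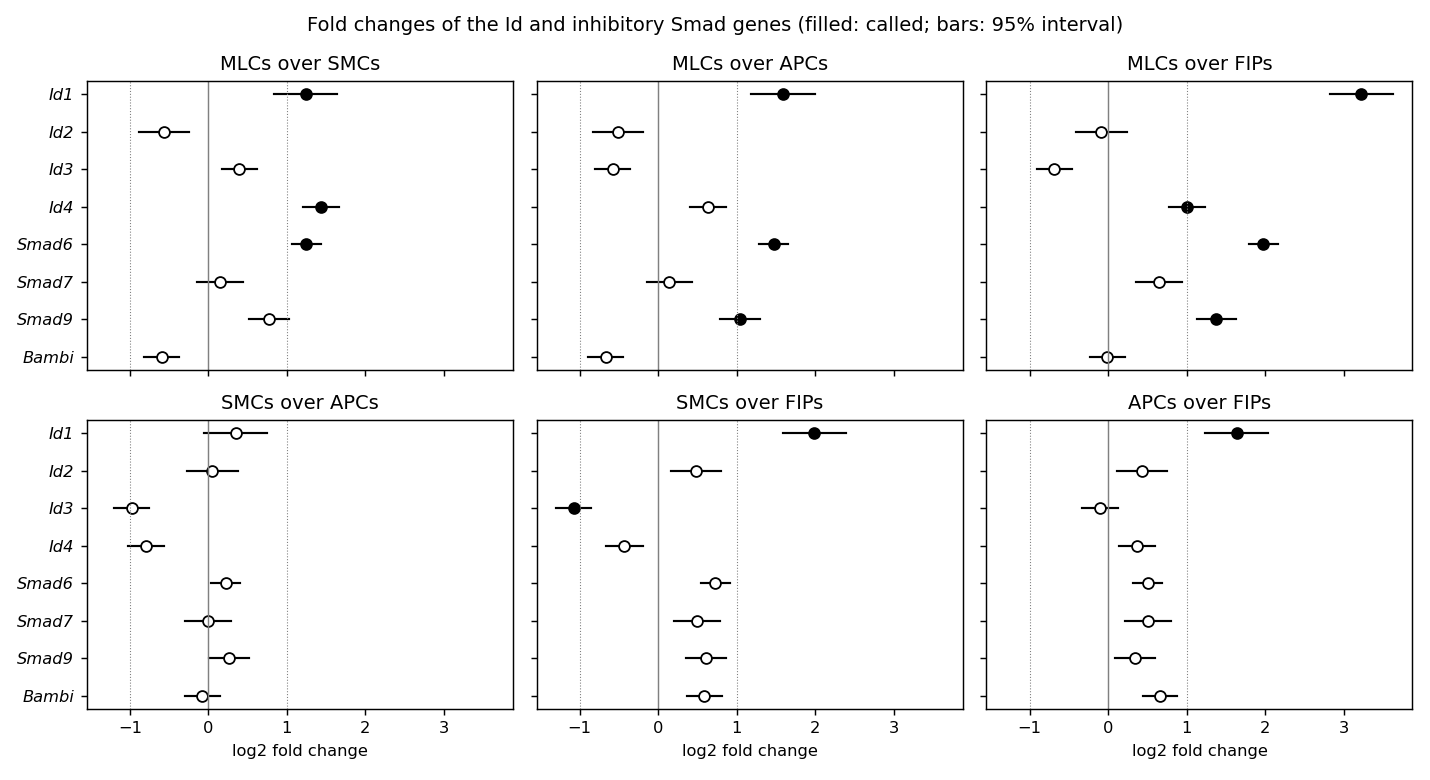
Log2 fold changes (horizontal axis) of the 8 genes in the 6 pairs of populations, with 95% intervals from limma. Filled points were called, and Id1 reaches 3.23 in MLCs over FIPs while no contrast of Id2, Smad7 or Bambi was called.

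Counted over the 8 genes, 3 were called higher in MLCs over SMCs (Id1, Id4 and Smad6) and 0 lower, against 14.4% of all tested genes higher and 13.5% lower. In MLCs over APCs 3 were higher (Id1, Smad6 and Smad9) and 0 lower, against 17.7% and 11.8%. In MLCs over FIPs 4 were higher (Id1, Id4, Smad6 and Smad9) and 0 lower, against 18.6% and 12.5%. SMCs over APCs had 0 higher and 0 lower by limma, against 13.5% and 3.79%. For that contrast, edgeR and DESeq2 on recovered reads each called 1, Id3. SMCs over FIPs had 1 higher (Id1) and 1 lower (Id3), against 13.3% and 4.6%. APCs over FIPs had 1 higher (Id1) and 0 lower, against 5.22% and 5.2%.

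Id1 and Smad6 were called higher in MLCs in all 3 of its pairs, as 10.6% of tested genes were. Id1 was also called lower in FIPs in all 3 pairs, as 1.96% of tested genes were. At least 1 contrast was called for 5 of the 8 genes, against 42.5% of tested genes. The median log2 fold change of the 8 genes in MLCs over FIPs was 0.83, against 0.02 over all tested genes. In APCs over FIPs it was 0.47 against -0.01, and in SMCs over APCs 0.02 against 0.02.

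**Figure D3:**
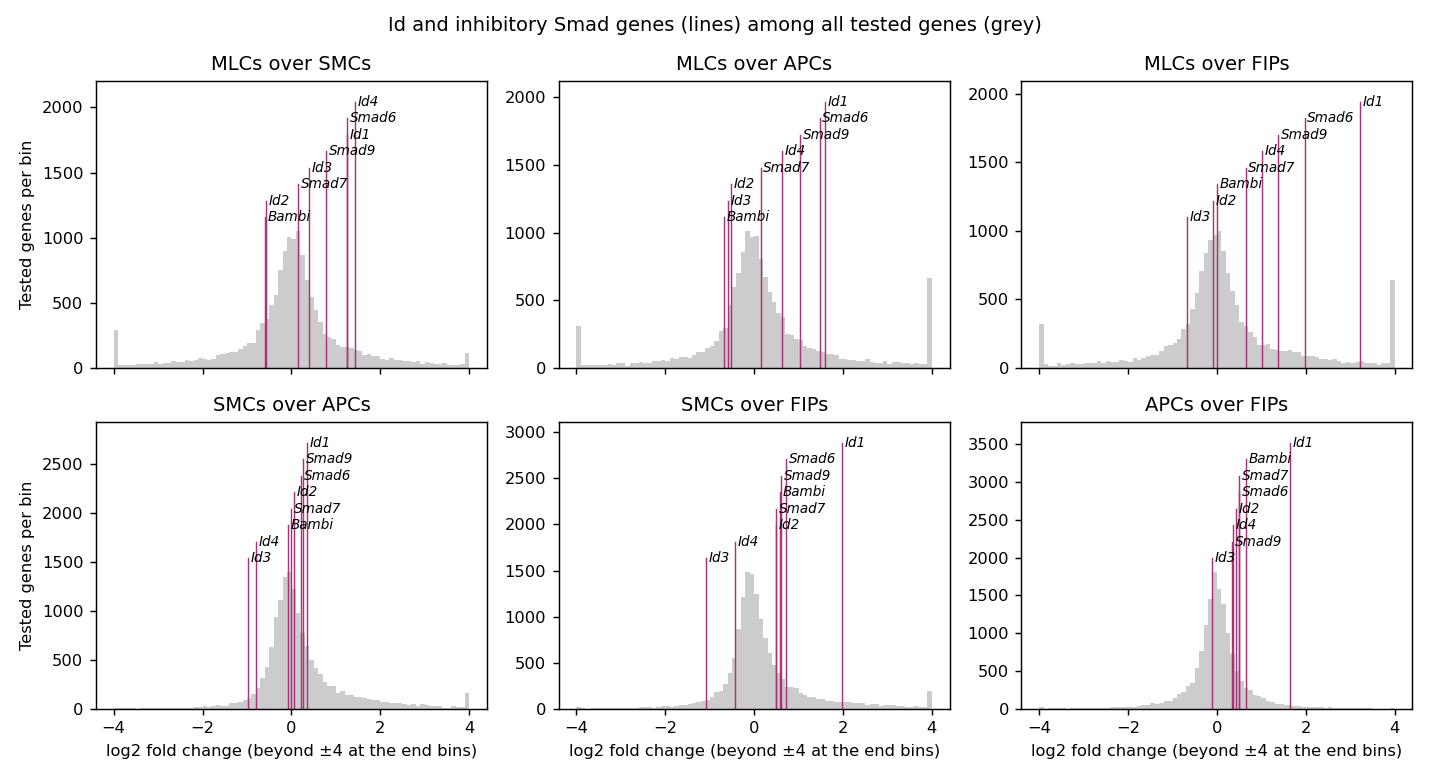
Histograms of the log2 fold changes of all 15024 tested genes in the 6 pairs of populations (grey), with a coloured line at each of the 8 genes. Line heights are staggered for the labels and carry no value. Id1 is the outermost line in MLCs over FIPs, where 8.94% of tested genes had a larger absolute log2 fold change, and in APCs over FIPs, where 4.63% had.

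Levels can be set against each other only per length. The length used was the union of all annotated exons of a gene. For Id1 it was 1160 bases, as long as the gene's whole span. For Id2 (2438 bases) and Id3 (1791 bases) it was longer than the span given above. Levels and shares per kilobase are therefore approximate. Per kilobase of exon, Id3 ranked first of the 8 genes in every population, at 2122 ± 231 normalized counts per kilobase in MLCs and 1622 ± 253 in SMCs, with 3182 ± 422 in APCs and 3402 ± 270 in FIPs (SD, n = 4 per population). Id1 ranked second in MLCs at 569 ± 19.9 and seventh in FIPs at 61.6 ± 15.2. Of the summed Id level per kilobase, Id3 made up 68.1% ± 1.95 in MLCs and 70.0% ± 1.19 in SMCs, with 82.6% ± 2.58 in APCs and 89.1% ± 0.44 in FIPs (SD, n = 4 per population). Id1 made up 18.3% ± 1.01 in MLCs and 10.6% ± 1.87 in SMCs, with 4.99% ± 0.93 in APCs and 1.6% ± 0.31 in FIPs, and no pair of populations overlapped. The summed Id level itself was 3112 ± 254 in MLCs and 2315 ± 355 in SMCs, with 3855 ± 493 in APCs and 3819 ± 322 in FIPs, and the sums of APCs and FIPs, which did not overlap in Id1, overlapped.

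**Figure D4:**
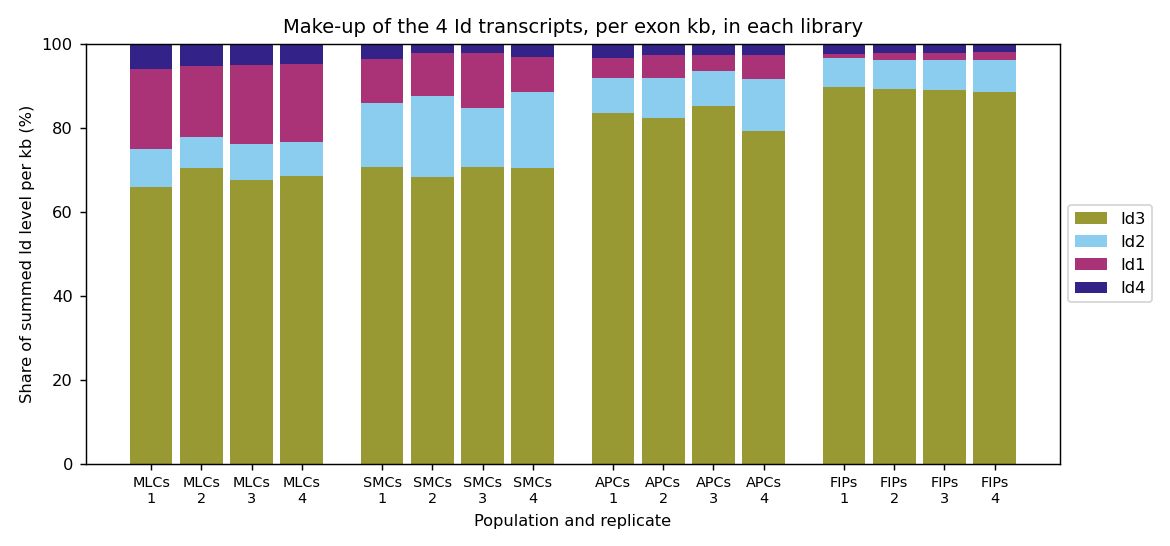
Share of each Id gene in the summed Id level per kilobase of exon (percent), with 1 stacked bar for each of the 16 libraries. On average, Id3 makes up 68.1% in MLCs and 89.1% in FIPs, and Id1 18.3% in MLCs and 1.6% in FIPs.

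Among themselves, the 8 genes were compared by the root-mean-square difference of their log2 values, each centred on its own mean over the 16 libraries. The values were not scaled to equal spread. Genes of narrow range, such as Id2 and Bambi, therefore tend to lie closer together than those of wide range, such as Id1. Id2 and Bambi were the closest pair, at 0.16, both high in SMCs and APCs. Smad6 and Smad9 came next at 0.26. Id1 and Id3 were the farthest apart at 1.49, although their proteins share partners. By the same measure, the genes nearest to Id1 among 11494 candidates were St3gal5 at 0.28, Adamts9 at 0.30 and Impa2 at 0.32. St3gal5, the enzyme that makes ganglioside GM3, averaged 772 ± 51.3 normalized counts in MLCs and 369 ± 40.4 in SMCs, with 238 ± 19.6 in APCs and 70.4 ± 8.82 in FIPs (SD, n = 4 per population), close to Id1 throughout. Nearest to Id3 was Vim, the intermediate filament vimentin, at 0.15. Nearest to Id4 were Tmem53 and Ctsc, at 0.16 each. Nearest to Smad6 was Plpp1, a lipid phosphatase, at 0.13, and nearest to Smad9 was Tob1, an antiproliferative protein that binds BMP-branch Smads, at 0.12. These distances describe 16 libraries in 4 groups, and the order of near neighbours moved with the libraries. Without APCs replicate 4 and SMCs replicate 3, Impa2 ranked first for Id1 at 0.24, with St3gal5 at rank 3 and Adamts9 at rank 5. Plpp1 was then at rank 2 for Smad6, behind Ctdspl at 0.10, and Tob1 at rank 4 for Smad9. Vim still ranked first for Id3, and Ctsc and Tmem53 changed places for Id4.

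The other genes of the pathway were read from 9 lists of 64 genes. Of 10 BMP ligands tested, 6 were called higher and 1 lower in MLCs over APCs, against 17.7% and 11.8% of all tested genes. In MLCs over FIPs 5 were higher and 3 lower, against 18.6% and 12.5%, and in MLCs over SMCs 4 higher and 2 lower, against 14.4% and 13.5%. In SMCs over APCs 7 were higher and 0 lower, against 13.5% and 3.79%, and in SMCs over FIPs 6 higher and 3 lower, against 13.3% and 4.6%. In APCs over FIPs 0 were higher and 4 lower, against 5.22% and 5.2%. Bmp4, a ligand linked to fat commitment, averaged 1473 ± 67.6 normalized counts in MLCs and 449 ± 78.2 in SMCs, with 50.8 ± 6.87 in APCs and 32.4 ± 7.26 in FIPs (SD, n = 4 per population), and rose in MLCs over FIPs by 5.48 on the log2 scale (adjusted p = 5.73e-17). Bmp6 rose in MLCs over APCs by 5.15, and its means were 865 ± 73.9 in MLCs and 247 ± 63.1 in SMCs, with 24.3 ± 7.83 in APCs and 262 ± 28.4 in FIPs. Bmp7, known for brown fat development, had 532 ± 39.8 in MLCs and 91.0 ± 7.79 in SMCs, with 17.5 ± 7.46 in APCs and 882 ± 65.0 in FIPs, and fell by 5.70 in APCs over FIPs. Bmp3, an atypical member that opposes other BMPs, fell by 4.41 in APCs over FIPs. Every FIP library, lowest in Id1, lay above every library of the other populations for Bmp7.

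Of 9 BMP antagonists tested, 4 were called higher and 3 lower in MLCs over FIPs, where 18.6% and 12.5% of all tested genes were. Bmper, a BMP-binding protein outside the cell, averaged 356 ± 33.2 normalized counts in MLCs and 630 ± 128 in SMCs, with 7396 ± 881 in APCs and 3347 ± 152 in FIPs (SD, n = 4 per population), and fell by 4.37 on the log2 scale in MLCs over APCs. Chrdl1 fell by 2.97 in MLCs over SMCs, and Fst, or follistatin, fell by 2.48 in SMCs over FIPs. Other antagonists rose. In MLCs over APCs 5 were called higher and 1 lower, against 17.7% and 11.8% of all tested genes. Chrd (1.38), Nbl1 (1.25) and Twsg1 (1.18) were among the higher ones. In MLCs over SMCs 1 was higher and 3 lower, against 14.4% and 13.5%.

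Of 10 BMP receptors and co-receptors, 2 were called higher and 3 lower in MLCs over FIPs, against 18.6% and 12.5% of all tested genes, and 0 in either direction in APCs over FIPs, against 5.22% and 5.2%. The count of higher receptors is near the share of all genes. Eng, or endoglin, a co-receptor best known from endothelium, averaged 93.3 ± 17.0 normalized counts in MLCs and 1993 ± 202 in SMCs, with 2095 ± 155 in APCs and 2858 ± 146 in FIPs (SD, n = 4 per population), and fell by 4.94 on the log2 scale in MLCs over FIPs. The type I receptor Bmpr1b rose by 3.31 in the same contrast, with 281 ± 22.0 in MLCs and 28.2 ± 7.31 in FIPs. Acvr2a, a type II receptor, fell by 1.93 in SMCs over APCs, and Acvrl1, the type I receptor that pairs with endoglin, fell by 1.16 in MLCs over SMCs. Of 6 TGF-beta ligands and receptors, 0 were higher and 1 lower in MLCs over FIPs, against the same 18.6% and 12.5%. MLCs over SMCs had 0 higher and 2 lower, against 14.4% and 13.5%. MLCs over APCs had 0 of either, against 17.7% and 11.8%. SMCs over APCs had 2 higher and 0 lower, against 13.5% and 3.79%. SMCs over FIPs had 1 and 0, against 13.3% and 4.6%, and APCs over FIPs 0 and 1, against 5.22% and 5.2%. Tgfb2 gave -2.21 in MLCs over SMCs, Tgfb3 1.65 in SMCs over FIPs and Tgfbr2 -1.47 in APCs over FIPs.

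Of 5 signal-transducing Smads, 0 were called higher and 2 lower in MLCs over FIPs, against 18.6% and 12.5% of all tested genes, and 0 were called in the other 5 contrasts at this size. Smad1, which carries the BMP signal, averaged 565 ± 30.0 normalized counts in MLCs and 1382 ± 64.2 in FIPs (SD, n = 4 per population) and fell by 1.29 on the log2 scale. Smad3, which carries the TGF-beta signal, fell by 1.12. Smad5 and the shared partner Smad4 gave -0.25 and -0.37, not called. Of 7 Smad regulators, 0 were higher and 2 lower in MLCs over FIPs, against the same 18.6% and 12.5%. The 2 were the ubiquitin ligases Smurf1 (-1.34) and Smurf2 (-1.14), which mark Smads and receptors for destruction. Id1 and Smad6 were thus highest where Smad1 was lowest. Of 3 E proteins, the partners of the Id proteins, Tcf4 fell by 1.44 in MLCs over APCs, where 11.8% of all tested genes were called lower. That was the one call of the list in the 6 contrasts, and 42.5% of tested genes were called in at least 1 of them.

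Other target genes did not all follow. Of 3 further BMP targets tested, 1 was called higher and 0 lower in MLCs over FIPs, against 18.6% and 12.5%. That gene, Msx1, had low means of 13.6 normalized counts in MLCs and 1.90 in FIPs. In MLCs over SMCs 0 were higher and 1 lower (Hey1, -1.08), against 14.4% and 13.5%. In MLCs over APCs 0 were higher and 1 lower (Hey1, -1.47), against 17.7% and 11.8%. APCs over FIPs had 2 higher and 0 lower, against 5.22% and 5.2%. SMCs over FIPs had 1 higher and 0 lower, against 13.3% and 4.6%. SMCs over APCs had 0 higher and 0 lower, against 13.5% and 3.79%. Atoh8, a BMP-induced transcription factor, averaged 252 ± 26.2 normalized counts in MLCs and 229 ± 50.6 in SMCs, with 279 ± 37.4 in APCs and 157 ± 23.7 in FIPs (SD, n = 4 per population), with no contrast called. Of 6 TGF-beta targets, 0 were higher and 4 lower in MLCs over SMCs, against 14.4% and 13.5% of all tested genes. In MLCs over APCs 1 was higher and 3 lower, against 17.7% and 11.8%. In MLCs over FIPs 2 were higher and 3 lower, against 18.6% and 12.5%. Ccn2 averaged 854 ± 179 in MLCs and 1575 ± 299 in SMCs, with 300 ± 206 in APCs and 187 ± 52.8 in FIPs. Ltbp2 averaged 161 ± 37.4 in MLCs and 3012 ± 251 in SMCs, with 396 ± 232 in APCs and 60.5 ± 16.8 in FIPs. Pmepa1, a TGF-beta-induced inhibitor of its own pathway, averaged 204 ± 13.1 in MLCs and 1831 ± 117 in SMCs, with 1164 ± 129 in APCs and 1086 ± 44.2 in FIPs, and fell by 3.16 on the log2 scale in MLCs over SMCs. In MLCs over FIPs, the median log2 fold change was 1.32 for BMP ligands, 0.62 for antagonists, -0.66 for receptors, -0.37 for signal-transducing Smads and -0.65 for TGF-beta targets, against 0.02 for all tested genes.

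**Figure D5:**
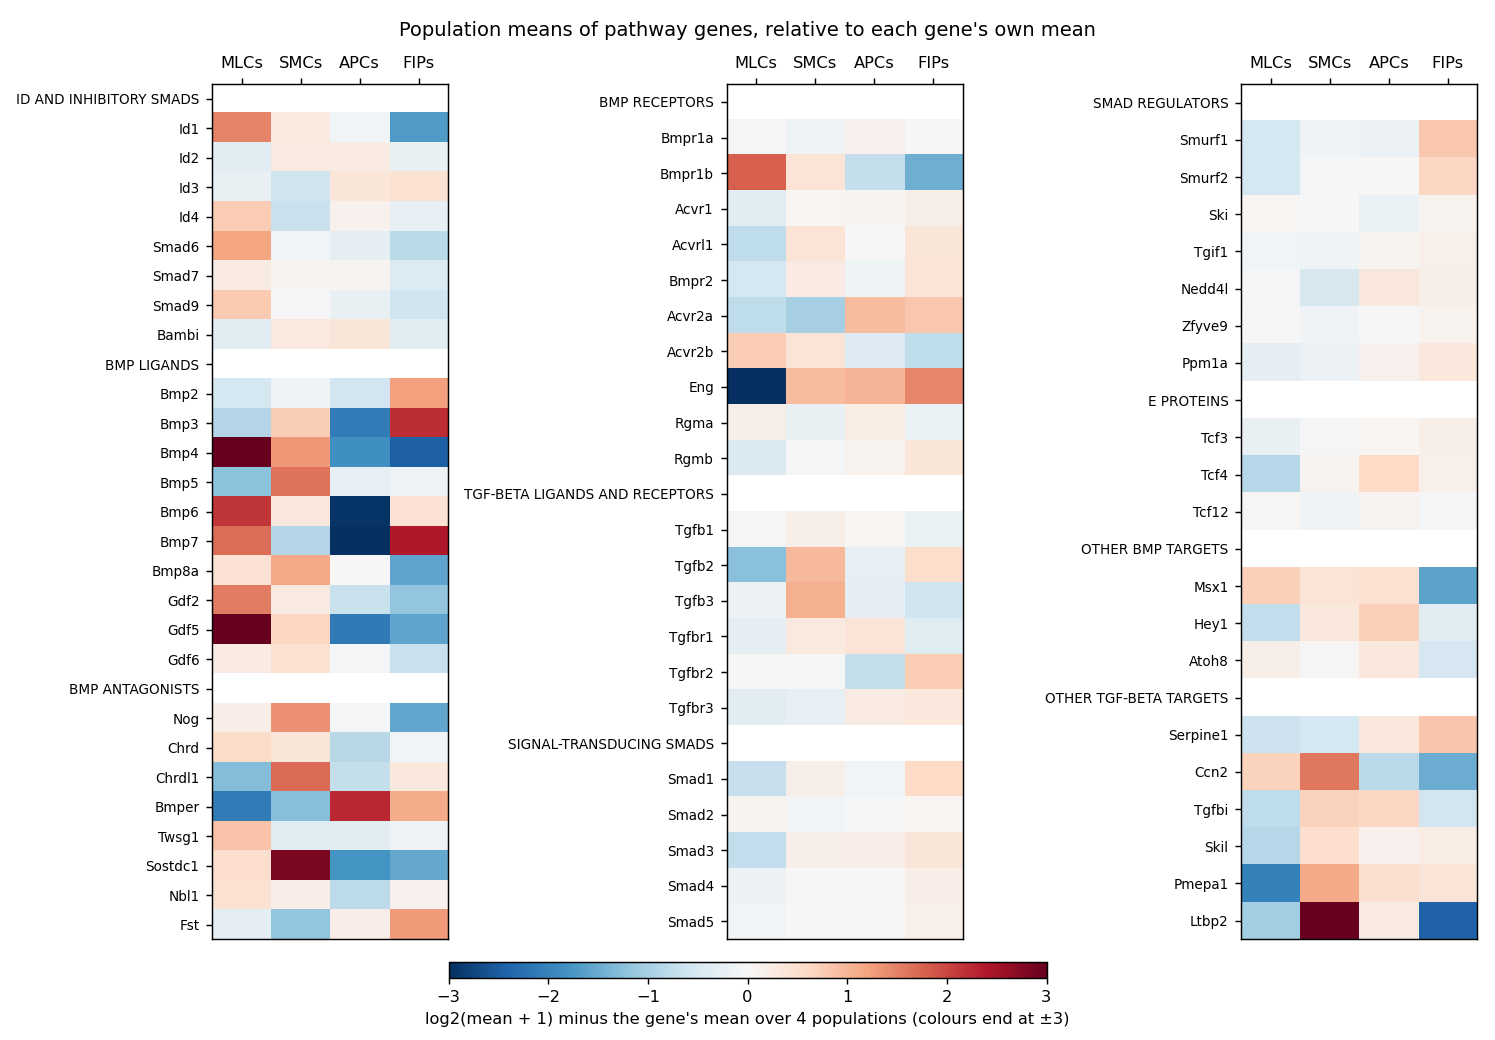
Population means of the Id and inhibitory Smad genes and of the pathway genes tested, 1 antagonist left out, as log2(mean + 1) minus the gene's own mean over MLCs, SMCs, APCs and FIPs (red above, blue below, colours end at 3). Bmp4 and Bmpr1b are red in MLCs with Id1 and Smad6, and Eng, Pmepa1 and Smad1 are blue there.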

How the data were processed

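Per the labels' protocols, NEBNext Ultra II libraries were built from total RNA of the sorted cells. The authors deposited a normalized signal: each library's read counts scaled by a single factor. Tools listed without role in the submitters' processing notes are DESeq2 1.6.3, featureCounts 1.4.6, HISAT2 2.0.1 and Trim Galore 0.4.1, and listed builds are mm10 and GRCm38. Annotation, strand setting and multi-mapping rules were not given in the sources used here. Columns headed SMLCs were taken as the SMCs by number.

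The filter kept genes at 10 or more in 4 or more of the 16 libraries, 15024 of 27179 rows. These were tested with limma 3.58.1 (R 4.3.3) on log2(value + 1), 1 fit with the 4 populations as groups, two-sided, with Benjamini-Hochberg adjustment within each of the 6 contrasts. The added 1 understates changes of low genes. A call needed a change of 1 log2 unit or more in size and an adjusted p under 0.05. Dividing by each library's step gave whole reads, within 0.01, for 100% of values under 1000 reads. For 14 libraries these reads were also tested with edgeR 4.0.16 and DESeq2 1.42.0; FIPs replicate 1 and APCs replicate 2, were left out of that test because the check used cannot tell steps so near 1 (0.989 and 1.007) from rounding.

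Exon lengths came from GENCODE release M21. Other named genes were up to 4 per pathway list with the largest fold change and a mean of at least 100 in some population, the 3 genes nearest in pattern to each called gene, and marker genes; not all are named, and 1 gene of the antagonist list is counted but not reported here. Bmp4, Bmp6, Bmp7 and other list genes are given in further contrasts for context. Chrd, Nbl1, Twsg1, Msx1 and Hey1 are named for context outside that rule. The 8 genes and the lists were chosen with earlier results of these data known. Alternatives were other pseudocounts, filters, scalings, tests and omitted libraries.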

Additional observations from a re-analysis of the deposited data

How the results depend on the processing

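The 8 genes' fold changes were recomputed under other pseudocounts, filters, scalings, sample choices and tests, and without each library in turn: of these values 1350 kept direction and call, 17 lost the call, 9 gained it and 16 changed sign, all 16 from small differences that were not called. The calls of Id1 and Smad6 in MLCs over all 3 other populations, and of Id1 below all 3 others in FIPs, held under every alternative run. With equal library totals, MLCs over FIPs turned to 0.25 for Id2 and 0.33 for Bambi and APCs over FIPs to 0.14 for Id3, where the median of all genes also moved, to 0.35 in MLCs over FIPs, 0.23 in APCs over FIPs, 0.22 in SMCs over FIPs, 0.15 in MLCs over SMCs and 0.11 in MLCs over APCs. Quantile normalization gave 0.0707 for Id3 in APCs over FIPs. SMCs over APCs for Id2 was -0.00492 with TMM scaling and -0.0124 with edgeR. Leaving out 1 library gave -0.061 to 0.041 for Bambi in MLCs over FIPs, and in SMCs over APCs -0.083 to 0.22 for Id2, -0.11 to 0.072 for Smad7 and -0.17 to 0.023 for Bambi.

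Among the 8 genes, the number called in SMCs over APCs was 0 in the main analysis. It became 1 (Id3) with equal totals, TMM scaling, edgeR, DESeq2, or without APCs replicate 4 and SMCs replicate 3 together. Limma on the 14 libraries of the count tests, an alternative chosen after seeing the data, also gave 1. Leaving out 1 library gave 0 to 1. In SMCs over FIPs, 2 became 1 with equal totals or quantile normalization, and 1 to 2 when 1 library was left out. Id4 in MLCs over FIPs lost its call with a pseudocount of 8 (0.99), quantile normalization (0.88), TMM (0.99), edgeR (0.97) and limma on the 14 libraries (0.996). Id3 in SMCs over FIPs was -0.86 with equal totals and -0.88 with quantile normalization. Smad9 in MLCs over APCs lost it with a pseudocount of 8 (0.99), quantile normalization (0.82) and TMM (0.9998). The causes were not tested.

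The share of called genes that were higher moved by over 10 points in 4 places: with equal totals to 71.4% (main 59.8%) in MLCs over FIPs and 67.5% (main 50.1%) in APCs over FIPs, and with quantile normalization to 58.0% (main 78.0%) in SMCs over APCs and 56.0% (main 74.3%) in SMCs over FIPs. Quantile normalization moved the median of all genes to -0.11 in MLCs over APCs. The replicate numbers were not treated as pairing the libraries, for which every pair with the same number had to have deviations from the population means that correlated over 0.1. Of 24 pairs 6 did (r from -0.034 to 0.17), but 23 were above 0, 15 of 24 comparisons were highest with their own number, and replicate 1 was lowest for Id1 and Id3 in all 4 populations, so shared handling by number was not settled. With replicate number as a block, 4211 genes were called in MLCs over SMCs (main 4185) and the counts over the 8 genes were as before in all 6 contrasts. The FIP values of Id1 rest on fewer than 100 reads per library, though the FIP libraries held 23.0 to 25.4 M reads in all.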

Other observations

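The ratio of Id1 to Smad6 in normalized counts lay between 0.63 and 0.73 in MLCs, 0.55 and 0.92 in SMCs and 0.56 and 0.74 in APCs, and these populations overlapped. In FIPs it lay between 0.21 and 0.35, below every library of the other 3 populations. No test was run on the ratio.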
